A study of Homo sapiens with 6 samples.

Results

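The genes described here encode the nucleolar factors that make ribosomes: abundant nucleolar proteins, the core proteins of small nucleolar ribonucleoprotein particles (snoRNPs), assembly factors of both ribosomal subunits, and subunits of RNA polymerase I. They were taken by symbol from a list of 60 genes. The rule used no measured value, but the list was chosen with earlier results of these data known. Each of the 60 matched 1 row of the 64252 rows in the gene count table. All 60 were among the 18734 genes that passed the low-count filter and were tested, and the lowest count of any of them in any library was 385.

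The libraries came from SK-N-BE(2), a human neuroblastoma cell line with amplified MYCN, and the series title concerns stabilization of N-Myc by BCAT1, a cytosolic aminotransferase for branched-chain amino acids. There were 3 groups of 2 libraries. Control cells carried the hairpin named shControl in the titles and shNC in the treatment field, and the other groups carried hairpin 1 (shBCAT1#1) or hairpin 2 (shBCAT1#2) against BCAT1. The design text describes the cells as transfected. The sources used here do not give the vector, the time after transfection, or whether a group is a clone or a pool. They also do not say that replicates were separate cultures, so every p-value below rests on a spread between libraries that may be technical.

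Total counts ran from 32333416 to 39321388 per library. Levels are given as CPM, the counts-per-million scaling of each library's total, with TMM factors, so they are relative to the rest of the transcriptome of a library. In bulk RNA, fewer cells of a type and less RNA per cell cannot be told apart. BCAT1 itself stood at 459 and 475 CPM in the control libraries, 55.7 and 55.3 with hairpin 1, and 116 and 111 with hairpin 2. MYCN, which encodes N-Myc, stood at 2250 and 2269 CPM, then 1820 and 1827, then 1701 and 1815. Of 10 markers of sympathetic neuroblastoma, 9 had at least 1 CPM in every group. Of the markers of other cell types, 1 of 5 for blood, 1 of 4 for endothelium, 1 or 2 of 6 for epithelium and 5 of 6 for fibroblasts reached 1 CPM. CD3E and HBB were at 0 in all groups, and CDH1 and KRT5 in the control and hairpin 1 groups. The summed sympathetic markers ran from 1643 to 1669 CPM in control, 1557 to 1641 with hairpin 1 and 1159 to 1168 with hairpin 2. The summed fibroblast markers ran from 905 to 936 CPM in control, 568 to 578 with hairpin 1 and 785 to 793 with hairpin 2, and the part of either in the results below was not tested.

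Ribosomes are built in the nucleolus around the ribosomal RNA that RNA polymerase I transcribes. C/D and H/ACA snoRNPs guide the methylation and pseudouridylation of that RNA, and separate sets of assembly factors fold, cleave and export the precursors of the small and the large subunit. Genes of this system are textbook targets of MYC proteins, which bind the E-box CACGTG as dimers with MAX.

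Starts of these genes often hold that E-box, and its sequence context is shown here. The rule for the genes named no sequence, but whether knowledge of MYC targets shaped the list is not known. RefSeq promoter windows (build GRCh38.p14, from 250 bases before to 50 after an annotated start) were held for 51 of the 60 genes by symbol. At least 1 CACGTG, which reads the same on both strands, was in a window of 24 of these 51 genes, or 47.1%. Among all 27305 genes of the promoter table the share was 8.78%, and among 11146 of the tested protein-coding genes it was 12.5%. Of 103 other ribosome assembly factors, 24.3% held it. In 21 of the 24 genes the motif lay within 50 bases of a start. Below are 30-base windows on the coding strand, with the E-box in capitals, for 4 of the genes that rose and 4 of those that fell with BCAT1 knockdown, picked with their changes known.
UTP20: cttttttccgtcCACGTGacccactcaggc
DDX21: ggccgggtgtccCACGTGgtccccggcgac
WDR43: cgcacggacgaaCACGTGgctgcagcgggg
NOC3L: tagggacttcggCACGTGtgtcattccccg
NOP10: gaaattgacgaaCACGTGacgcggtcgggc
FBL: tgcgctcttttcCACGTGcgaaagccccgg
RRP9: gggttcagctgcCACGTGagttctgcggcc
NAT10: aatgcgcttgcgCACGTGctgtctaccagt
The windows are chr12:101280083-101280112 (plus strand) for UTP20, chr10:68956604-68956633 (plus) for DDX21, chr2:28894658-28894687 (plus) for WDR43 and chr10:94362903-94362932 (minus) for NOC3L. Those of the genes that fell are chr15:34343130-34343159 (minus) for NOP10, chr19:39846356-39846385 (minus) for FBL, chr3:51941892-51941921 (minus) for RRP9 and chr11:34105602-34105631 (plus) for NAT10. After the GC and length correction described further on, WDR43 (0.07), NOC3L (0.05), FBL (0.01) and RRP9 (−0.02) were no longer called over both hairpins. Without that correction, the motif was found among genes of each direction. It was in 5 of the 9 higher genes with a window, in 9 of the 20 lower genes and in 10 of the 22 that were not called. The median log2 fold change over both hairpins was −0.10 for genes with it and −0.07 for genes without it. A match describes the letters and is not evidence of binding.

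In control cells the factors spanned a wide range of levels. Per kilobase of the longest coding transcript, the median over the 60 genes was 35.4 CPM, and the range was 4.02 to 961. NPM1, nucleophosmin, an abundant nucleolar chaperone, stood highest at 961 ± 7.5 CPM per kilobase (SD, n = 2). NCL, nucleolin, a nucleolar RNA-binding protein, came next at 334 ± 3.7. The libraries of NPM1 were at 1681 and 1699 CPM in control, 1754 and 1714 with hairpin 1 and 1496 and 1445 with hairpin 2, so that only hairpin 2 lay below control. Those of NCL were at 1336 and 1357 CPM, then 1381 and 1329, then 1490 and 1379, and the hairpin 1 libraries overlapped control. The H/ACA proteins NHP2 (204 ± 5.1) and NOP10 (200.4 ± 4.8) followed, close to each other. The SD is between libraries and does not cover the choice of transcript length. The longest transcript need not be the one expressed, so the order of genes and roles depends on that choice. NOC2L, a large-subunit factor, came after these at 112 ± 5.9 CPM per kilobase. Its libraries were at 324 and 301 CPM in control, 268.5 and 275 with hairpin 1 and 279 and 276 with hairpin 2, all knockdown libraries below both controls. By role, the medians were 129.5 CPM per kilobase for the H/ACA proteins, 76.2 for the C/D proteins, 50.4 for the nucleolar scaffolds, 47.9 for large-subunit factors, 26.3 for small-subunit factors and 17.9 for RNA polymerase I subunits. PWP2, a small-subunit processome protein, was lowest at 4.02 ± 0.026. NPM1 has 45 annotated pseudogenes that carry its name and BMS1 has 17, so their reads are uncertain.

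**Figure D1:**
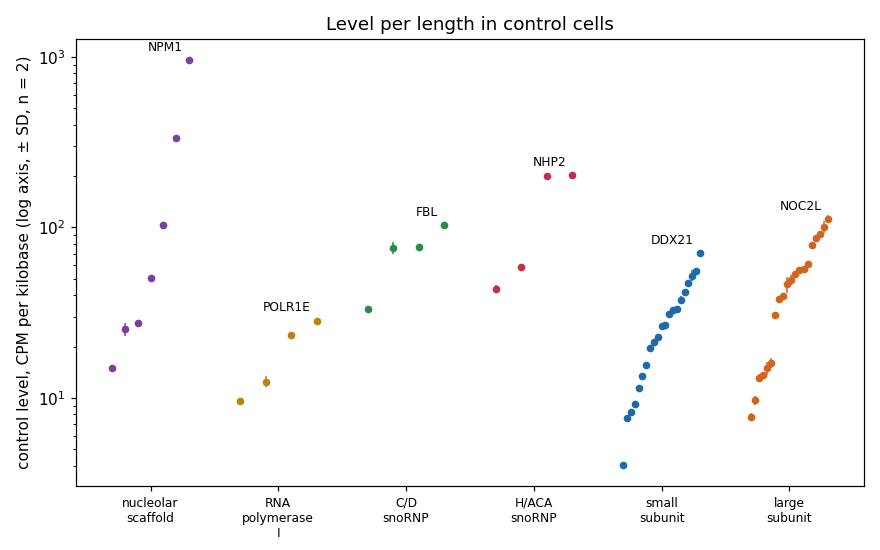
Level of each of the 60 factors in control cells, in CPM per kilobase of the longest coding transcript on a log axis, grouped by role. Points are means of 2 control libraries with SD, and NPM1 at 961 stands above every other factor.

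The first comparison set the mean of both knockdown groups against control. Lower levels were the more frequent: of 60 factors, 10 were higher and 25 lower, and 25 did not pass (edgeR quasi-likelihood test, Benjamini-Hochberg adjusted p under 0.05 over all genes). Over all genes tested 50% were called, 23.6% higher and 26.4% lower, so the factors were called lower more often (41.7%) and higher less often (16.7%) than genes at large, as a description without a test. Genes at large include some that are not protein-coding, whereas all 60 factors are. In a fit of 13907 protein-coding genes alone, 28.8% were higher and 31.8% lower. The median log2 fold change of the factors was −0.08, against −0.01 over all genes tested. In 9 factors all 4 knockdown libraries lay above both controls, and in 24 all 4 lay below, where 22% and 23.6% of all tested genes did so. Called changes of at least 0.5 on the log2 scale were those of UTP20 and DDX21, which rose (11.3% of all genes tested did), and of NOLC1, NHP2 and NOP10, which fell (11.1% did). RRP1 and RRP9, both at −0.45, were just short of that size. Over all 60 factors the range was −0.78 to 0.61. Against a fold threshold of 1.5 in edgeR, NOLC1 was the 1 factor that passed, where 5.55% of all genes tested did.

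These changes stood beside a trend with the GC content of transcripts. Across the 60 factors, which are not independent replicates and come from the same libraries, fold changes had a Spearman correlation of −0.69 with GC content and of 0.58 with transcript length. Across 13907 tested protein-coding genes these were −0.45 and 0.45. The median GC content was 41.4% for the 10 higher factors, 56.0% for the 25 lower and 46.8% for the rest. A correction that removed each library's trend with GC content and length was therefore set beside the same genes without it. Without correction 36 factors were called among those 13907 genes, 10 higher and 26 lower, NPM1 being the added one. All genes then had 28.8% higher and 31.8% lower without the correction, and 22.9% and 28.6% with it. After correction 14 of the 36 were still called in their direction (4 higher and 10 lower), 16 were no longer called, and 6 were called in the opposite direction. Another 10 were called only after correction, 2 higher and 8 lower, so that 9 were higher and 21 lower in all. Calls kept, lost, reversed or gained were not counted over all protein-coding genes. These counts therefore do not show that such turnover is particular to the factors. The 14 were NOLC1, TCOF1, NOP56, NOP58, NHP2, NOP10, UTP18, UTP20, NAT10, DDX21, TSR1, DDX18, RRP1 and EBNA1BP2. These calls are for the mean of both hairpins. After correction DDX21, UTP18, NHP2 and EBNA1BP2 did not pass with hairpin 2, and TCOF1 was called higher with hairpin 1. Such a correction also removes any true change that follows GC content or length.

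**Figure D2:**
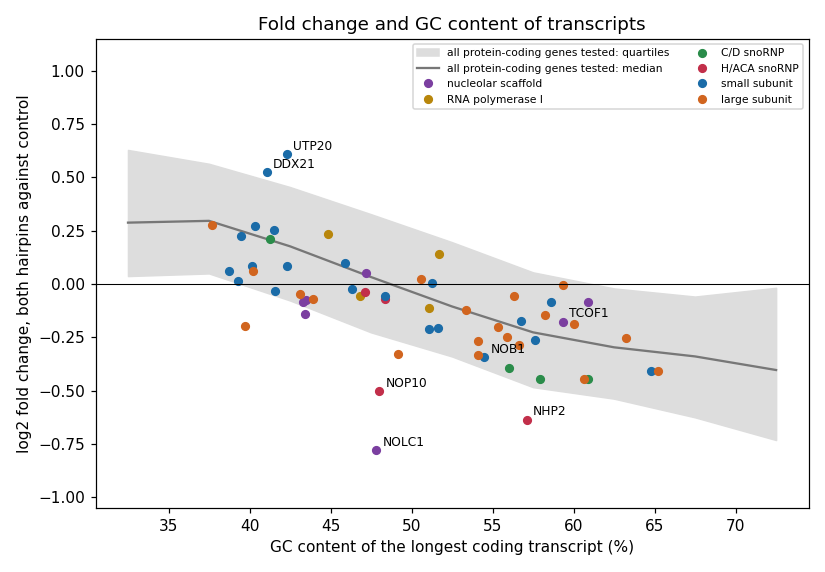
Log2 fold change over both hairpins against the GC content of the longest coding transcript, in percent. Points are the 60 factors by role; the line and band are the median and quartiles of all 13907 tested protein-coding genes in bins of GC content. NOLC1, NOP10 and NHP2 lie below the band and UTP20 and DDX21 above it.

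**Figure D3:**
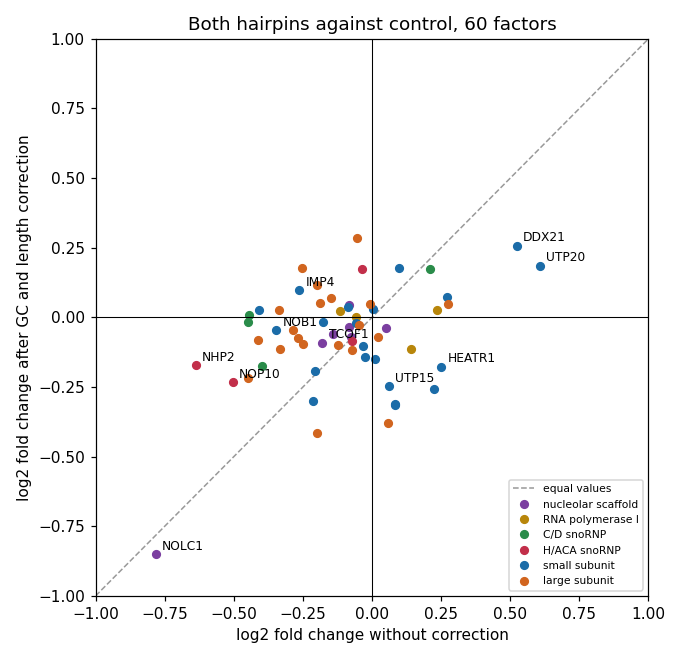
Log2 fold change of the 60 factors over both hairpins, without (horizontal) and with (vertical) the correction for GC content and length. NOLC1 stays near −0.8 on both axes, while UTP20 and NHP2 move toward 0 and HEATR1 and IMP4 change sign.

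The nucleolar scaffolds held the largest change. NOLC1 encodes Nopp140, which binds snoRNPs and RNA polymerase I (ENSG00000166197, chromosome 10, 102152176 to 102163871, plus strand, hg38). Its level was 399 and 415 CPM in control libraries, 183 and 182 with hairpin 1, and 311 and 306 with hairpin 2. All 4 knockdown libraries were below both controls, and the hairpin 1 libraries were lowest. NOLC1 fell 1.72-fold over both hairpins (−0.78 ± 0.03 SE in log2, adjusted p = 1.7e-06 by edgeR), and the value after GC and length correction was −0.85. TCOF1, treacle, brings RNA polymerase I to the ribosomal DNA. It was also called lower over both hairpins (−0.18 ± 0.03 SE, adjusted p = 0.0023 by edgeR). After GC and length correction the value was −0.09 (edgeR adjusted p = 0.046). TCOF1 fell with hairpin 2 (−0.43) but did not pass with hairpin 1 (0.07), whose libraries lay above both controls. The other 5 scaffolds did not pass over both hairpins: NPM1 (−0.08), NCL (0.05), LYAR, a zinc-finger protein (−0.14), GNL3, nucleostemin (−0.07), and MYBBP1A (−0.08).

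Subunits of RNA polymerase I did not move together. POLR1B, a catalytic subunit, rose by 0.24 on the log2 scale over both hairpins and was called higher with each (0.28 and 0.20). POLR1A, the largest subunit, was called higher over both (0.14), but rose with hairpin 1 (0.34) and did not pass with hairpin 2 (−0.05), whose libraries lay below both controls. POLR1E, of the initiation heterodimer, was called lower over both (−0.11), but fell with hairpin 2 (−0.31) and did not pass with hairpin 1 (0.08), whose libraries lay above both controls. POLR1C, shared with RNA polymerase III, did not pass (−0.06). After GC and length correction POLR1A was instead lower (−0.11, edgeR adjusted p = 0.013), and POLR1B (0.03) and POLR1E (0.02) no longer passed. POLR1C shares exonic sequence with XPO5 and YIPF3 on the opposite strand, whose rows averaged 195 and 86.3 CPM against 48.2 for POLR1C, so its reads are uncertain if strand was not used in counting. The same holds for MRTO4 and UTP4, the other factors overlapped on the opposite strand by a gene with more reads. EMC1, which overlaps MRTO4, was at 189 and 182 CPM in control, 173 and 186 with hairpin 1 and 113 and 116 with hairpin 2. CHTF8, which overlaps UTP4, was at 182 and 168 CPM, then 162 and 182, then 109 and 107.

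In the C/D snoRNP, 3 of 4 transcripts fell and 1 rose. FBL, fibrillarin, the methyltransferase, was at 119.7 and 118.8 CPM in control, 96.0 and 86.3 with hairpin 1, and 84.8 and 83.7 with hairpin 2. The core protein NOP56 was at 184.0 CPM in each control library, then 139.9 and 145.5, then 136.9 and 137.4. RRP9, which is specific to the U3 particle, was at 53.7 and 51.4 CPM, then 41.7 and 41.6, then 35.9 and 35.4. Every knockdown library was below both controls for these 3 genes, with log2 fold changes of −0.44, −0.40 and −0.45. NOP58, the partner of NOP56, moved the other way, from 146.5 and 163 CPM to 183 and 180.5 with hairpin 1 and 178 and 175 with hairpin 2 (0.21 ± 0.05 SE in log2, adjusted p = 0.0058 by edgeR). After GC and length correction NOP56 (−0.18) and NOP58 (0.17) were still called, while FBL (0.01) and RRP9 (−0.02) were not.

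In the H/ACA snoRNP, 2 of 4 transcripts fell. NHP2 (ENSG00000145912, chromosome 5, 178149460 to 178153967, minus strand) stood at 179 and 173 CPM in control, 113 and 105 with hairpin 1, and 115 and 119 with hairpin 2. It fell 1.555-fold over both hairpins (−0.64 ± 0.04 SE in log2, adjusted p = 7.8e-06 by edgeR). NOP10 (ENSG00000182117, chromosome 15, 34341713 to 34343177, minus strand), whose E-box window is printed above, stood at 109 and 113 CPM, then 80.3 and 75.9, then 77.2 and 79.96. It fell 1.42-fold (−0.50 ± 0.04 SE, adjusted p = 1.9e-05 by edgeR). For both genes all knockdown libraries lay below both controls. DKC1, dyskerin, the pseudouridine synthase, and GAR1 did not pass over both hairpins (−0.07 and −0.04), and DKC1 fell by 0.13 with hairpin 2. After GC and length correction NHP2 and NOP10 were still lower, by smaller amounts (−0.17 and −0.23), and GAR1 was called higher (0.17, edgeR adjusted p = 0.043). NHP2 shares exonic sequence with RMND5B on the opposite strand, which stood at 50.9 and 45.5 CPM in control, 37.1 and 32.1 with hairpin 1, and 40.2 and 42.2 with hairpin 2.

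Of the 21 small-subunit factors 6 were higher and 5 lower, with a median log2 fold change of 0.00, about the share of all genes tested (23.6% higher and 26.4% lower). UTP20, a large scaffold of the processome (ENSG00000120800, chromosome 12, 101280109 to 101386616, plus strand), rose most. Its level was 73.6 and 76.6 CPM in control, 111 and 116 with hairpin 1, and 117 and 114 with hairpin 2. All knockdown libraries exceeded both controls, a rise of 1.52-fold over both hairpins (0.61 ± 0.04 SE in log2, adjusted p = 8.0e-06 by edgeR). DDX21, an RNA helicase (ENSG00000165732, chromosome 10, 68956128 to 68985073, plus strand), was at 329 and 352 CPM in control, 549.8 and 531 with hairpin 1, and 451.5 and 438 with hairpin 2. It rose 1.44-fold (0.52 ± 0.04 SE, adjusted p = 1.7e-05 by edgeR), again with no overlap between knockdown and control libraries. The processome proteins WDR43 (0.27), HEATR1 (0.25) and WDR3 (0.23) also rose. UTP18 was called higher over both hairpins (0.10), but it rose with hairpin 1 (0.28) and did not pass with hairpin 2 (−0.09), where both libraries, at 84.9 and 84.1 CPM, lay below the controls at 88.6 and 90.7.

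The 5 small-subunit transcripts that were lower over both hairpins were NOC4L (−0.41), a partner of NOP14, NOB1 (−0.34), IMP4 (−0.26), of the U3 particle, TSR1 (−0.21), a late factor, and NAT10 (−0.20), an RNA acetyltransferase. The value for NOB1 averaged opposite changes and is taken up with the hairpins below. TSR1 fell with hairpin 1 (−0.39) and did not pass with hairpin 2 (−0.04). BMS1, DDX10, NOP14, PNO1, PWP2, RRP12, UTP4, UTP14A, UTP15 and WDR75 did not pass over both hairpins. Correction for GC content and length changed the counts of small-subunit factors: 4 were then higher and 10 lower, with a median of −0.05. Of all protein-coding genes 22.9% were then higher and 28.6% lower. NOC4L (0.03), NOB1 (−0.05) and WDR43 (0.07) were no longer called. UTP20 (0.19, edgeR adjusted p = 0.0018) and DDX21 (0.26, edgeR adjusted p = 5.8e-05) were still higher, and NAT10 and TSR1 still lower. DDX21 was then called higher with hairpin 1 (0.44) but did not pass with hairpin 2 (0.08, edgeR adjusted p = 0.096). HEATR1 (−0.18) and WDR3 (−0.26) became lower and IMP4 higher (0.10), and DDX10 and BMS1 were called lower (−0.31 each).

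Large-subunit factors were mostly lower: 12 of 20 fell, 1 rose and 7 did not pass, with a median log2 fold change of −0.19, where 26.4% of all genes tested were lower and 23.6% higher. RRP1 fell by 0.45 on the log2 scale, from 50.7 and 46.0 CPM in control to 36.1 and 38.2 with hairpin 1 and 33.0 and 34.7 with hairpin 2. Its paralog RRP1B, 93.4 kb away on chromosome 21, was at 68.8 and 70.75 CPM in control, 77.65 and 76.75 with hairpin 1 and 65.3 and 64.6 with hairpin 2, and did not pass over both hairpins (0.02). In the PeBoW complex, which processes large-subunit RNA, BOP1 (−0.41) and PES1 (−0.15) fell, and WDR12 did not pass (0.06). The other 9 that fell were NOP16 (−0.33), EBNA1BP2 (−0.33), DDX56 (−0.29), MRTO4 (−0.27), PPAN (−0.25), the methyltransferase NOP2 (−0.25), WDR74 (−0.20), DDX18 (−0.20) and NOC2L (−0.19). Of those that fell, PES1 (−0.06), MRTO4 (−0.17) and PPAN (−0.12) did not pass with hairpin 1. With hairpin 2 they were lower (−0.24, −0.36 and −0.39). NOC3L rose by 0.28, and GRWD1, RRS1, BRIX1, NIP7 and SURF6 did not pass. After GC and length correction 5 of the 20 were lower and 3 higher, with a median of −0.06, which is about the share of all protein-coding genes (28.6% lower and 22.9% higher). DDX18 (−0.41), RRP1 (−0.22) and EBNA1BP2 (−0.12) were still lower, and WDR12 (−0.38) and NIP7 (−0.12) became so. WDR74 (0.12), PPAN (0.18) and RRS1 (0.29) were higher.

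**Figure D4:**
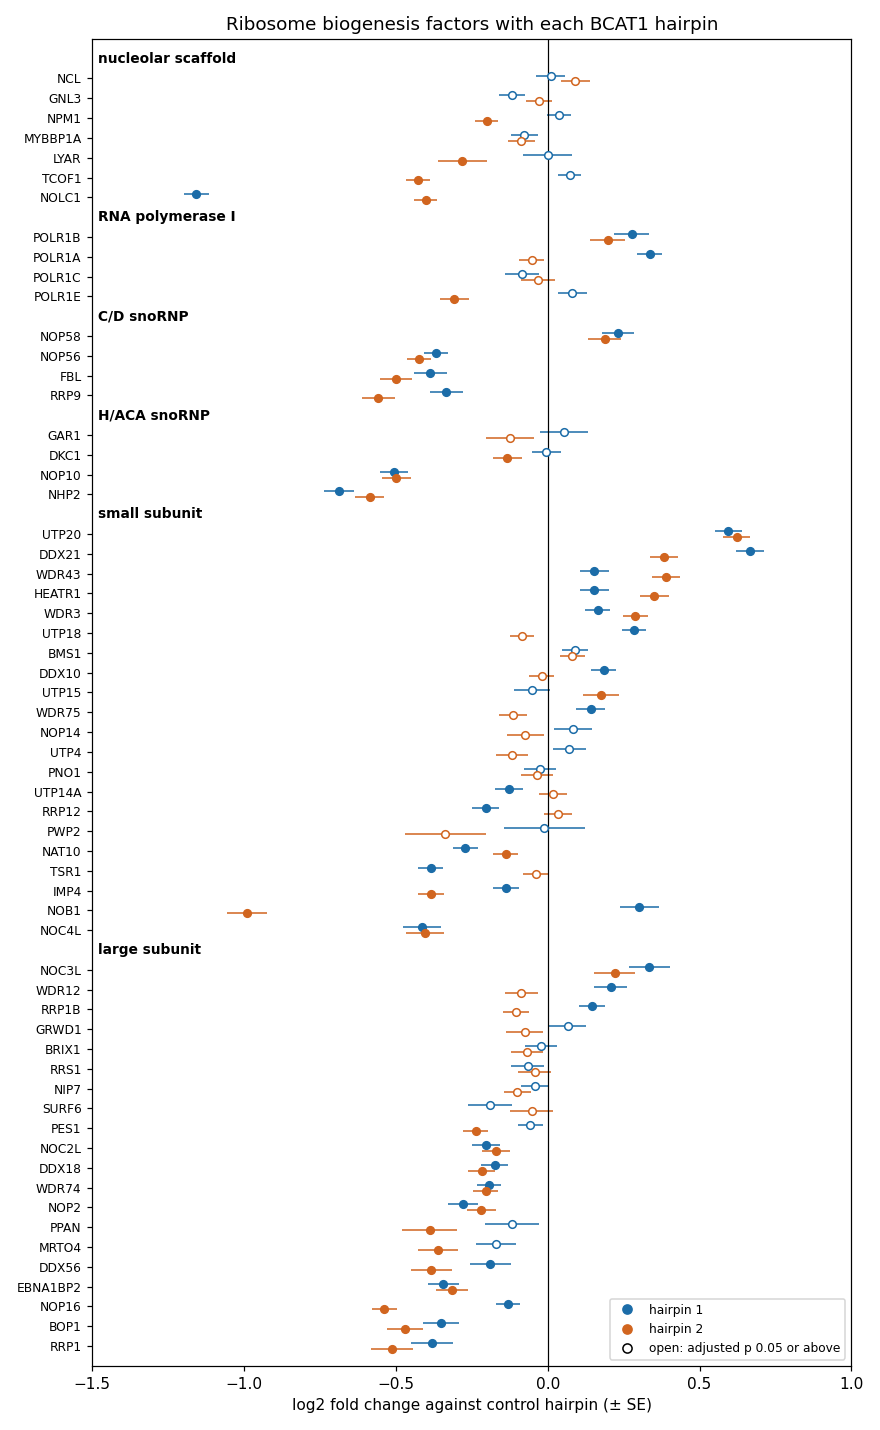
Log2 fold change of each factor against the control hairpin with hairpin 1 (blue) and hairpin 2 (orange), with standard errors, grouped by role; filled points passed at an adjusted p under 0.05. NOB1 lies at 0.30 with hairpin 1 and −0.99 with hairpin 2, and large-subunit factors lie mostly left of 0 with both.

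Each hairpin was next compared with the same 2 control libraries, to ask what either did on its own. With hairpin 1, 15 factors were higher and 21 lower, where 49.1% of all genes tested were called, 24.2% higher and 24.9% lower, with a median log2 fold change of −0.05. With hairpin 2, 9 were higher and 27 lower, where 49.3% of all genes were called, 23.9% higher and 25.4% lower, with a median of −0.12. Without replicate 1 of the control, 9 were higher with hairpin 1 and 5 with hairpin 2, and without replicate 1 of hairpin 2, 5 were higher with hairpin 2. With hairpin 1, 20 factors had both libraries above both controls (36.6% of all genes) and 30 below (37.5%). With hairpin 2 these were 11 (37.3%) and 40 (38.5%). By role, 9 small-subunit factors were higher and 6 lower with hairpin 1, and 6 higher and 4 lower with hairpin 2. Among large-subunit factors 3 were higher and 9 lower with hairpin 1, and 1 higher and 12 lower with hairpin 2. The scaffolds had 1 fall with hairpin 1 (NOLC1) and 4 with hairpin 2 (NOLC1, TCOF1, NPM1 and LYAR). Corrected counts were 15 higher and 18 lower with hairpin 1, and 7 higher and 25 lower with hairpin 2. All protein-coding genes then had 27.2% higher and 28.4% lower with hairpin 1, close to the factors' shares, and 23.6% and 27.2% with hairpin 2. In all, 15 factors passed in none of the 3 comparisons with control, among them NCL, GNL3, MYBBP1A, NOP14 and PNO1.

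The hairpins themselves differed at many of these genes. Between hairpin 2 and hairpin 1, 9 factors were higher and 20 lower. The share called, 48.3%, was near the 46.2% of all genes tested (22.9% higher and 23.3% lower). Without replicate 2 of either hairpin, or replicate 1 of hairpin 2, 5 were higher, and without replicate 2 of hairpin 2, 13 were lower. The libraries of hairpin 2 lay all above those of hairpin 1 for 14 factors (37.4% of all genes) and all below for 34 (36.7%). A called difference of at least 0.5 on the log2 scale was found for NOLC1, which was higher with hairpin 2 (13.1% of all genes were), and for NOB1 and TCOF1, which were lower (11.4% were).

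NOB1, the endonuclease that forms the end of the small-subunit RNA, changed in opposite directions (ENSG00000141101, chromosome 16, 69741867 to 69754940, minus strand). Its level was 95.1 and 85.9 CPM in control, 106 and 117 with hairpin 1, and 46.0 and 45.1 with hairpin 2. The 3 groups did not overlap. It rose 1.23-fold with hairpin 1 (0.30 ± 0.06 SE in log2, adjusted p = 0.0042 by edgeR) and fell 1.99-fold with hairpin 2 (−0.99 ± 0.07 SE, adjusted p = 1.0e-05 by edgeR). The difference between the hairpins was −1.29 (SE 0.07, adjusted p = 1.7e-06 by edgeR). Corrected for GC content and length, the difference was −1.22, the rise with hairpin 1 was 0.56 and the fall with hairpin 2 was −0.66, and the value over both hairpins was −0.05 and no longer called. NOB1 was the single factor called in opposite directions with the hairpins without a GC and length correction, as 5.73% of all genes tested were. After correction 6 factors were, where 9.97% of the 13907 protein-coding genes were (8.23% of these without it). NPM1 (0.10 and −0.17), TCOF1 (0.11 and −0.29), POLR1E (0.20 and −0.15) and NOP16 (0.19 and −0.14) were then higher with hairpin 1 and lower with hairpin 2, as was NOB1, and RRP12 was lower and then higher (−0.13 and 0.21). PNO1, the partner of NOB1, did not pass with either hairpin (−0.03 and −0.04), nor did NIP7 (−0.04 and −0.10) and UTP4 (0.07 and −0.12), which lie 398.8 and 510.7 kb from NOB1. The gene that overlaps NOB1 on the opposite strand, AC092115.3, averaged 1.45 CPM.

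NOLC1 was lower with both hairpins but by different amounts. It fell 2.23-fold with hairpin 1 (−1.16 ± 0.04 SE in log2, adjusted p = 4.5e-07 by edgeR) and 1.32-fold with hairpin 2 (−0.40 ± 0.04 SE, adjusted p = 6.1e-05 by edgeR), a difference of 0.75 (SE 0.04, adjusted p = 2.0e-06 by edgeR). TCOF1 (ENSG00000070814, chromosome 5, 150357629 to 150400308, plus strand) was at 140.5 and 139 CPM in control, 148 and 146 with hairpin 1, and 105 and 103 with hairpin 2. Only the hairpin 2 libraries were below control. It fell 1.35-fold with hairpin 2 (−0.43 ± 0.04 SE, adjusted p = 4.5e-05 by edgeR), did not pass with hairpin 1 (0.07, edgeR adjusted p = 0.16), and differed between the hairpins by −0.50 (SE 0.04, adjusted p = 1.8e-05 by edgeR). With the correction TCOF1 was called higher with hairpin 1 (0.11, edgeR adjusted p = 0.041), its fall with hairpin 2 was −0.29, and the difference was −0.40. Without the correction NOP10 (difference 0.01 ± 0.05 SE, adjusted p = 0.91 by edgeR), UTP20 (0.03 ± 0.04 SE, adjusted p = 0.65 by edgeR) and NHP2 (0.10 ± 0.05 SE, adjusted p = 0.13 by edgeR) did not pass the test of the difference between the hairpins. With it NOP10 (0.02) and UTP20 (−0.06) still did not, whereas NHP2 differed by 0.20 (adjusted p = 0.0050 by edgeR). NHP2 was then lower with hairpin 1 (−0.27) and did not pass with hairpin 2 (−0.07, edgeR adjusted p = 0.24).

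**Figure D5:**
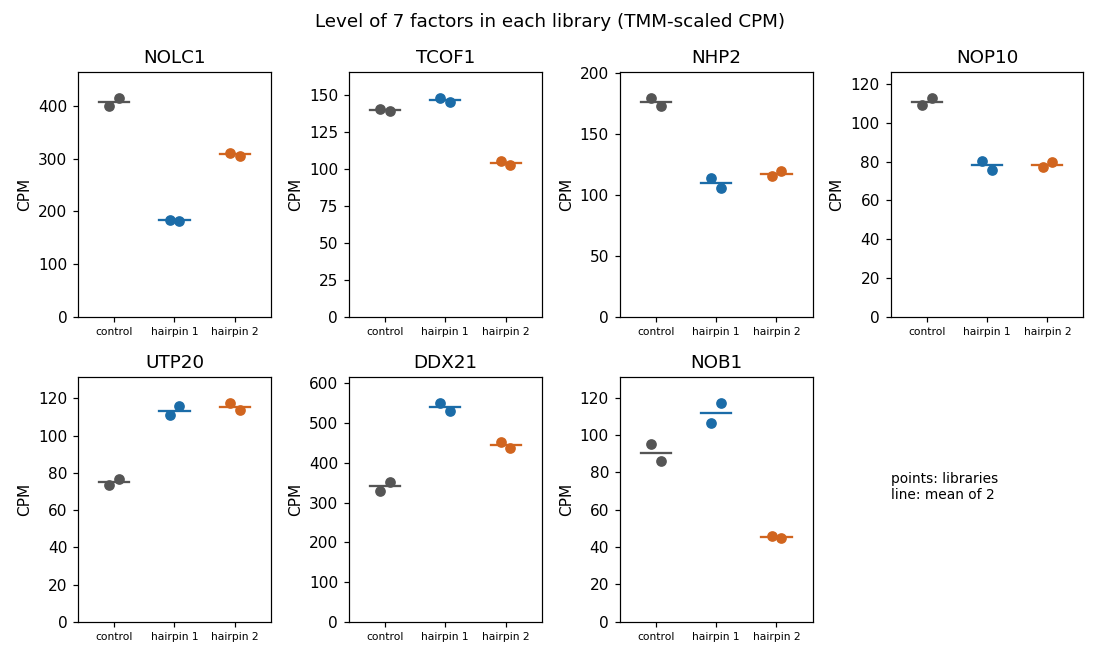
CPM in each library for the 7 factors with the largest changes over both hairpins or between the hairpins. Points are libraries and lines are means of 2; axes start at 0. NOB1 is above control with hairpin 1 and near 45 CPM with hairpin 2, and TCOF1 is below control with hairpin 2 alone.

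Other genes of the pathway, a list of 119 further assembly factors, had similar counts. Over both hairpins 27 were higher and 51 lower, with a median log2 fold change of −0.07, against the 23.6% and 26.4% of all genes given above. After GC and length correction 19 were higher and 46 lower, where 22.9% of all protein-coding genes were higher and 28.6% lower. By role, 4 of 11 further RNA polymerase I genes rose and 2 fell, 3 of 10 snoRNP assembly factors rose and 6 fell, and 2 of 14 exosome genes rose and 8 fell. The further small-subunit factors had 10 higher and 16 lower of 41, and the large-subunit factors 8 and 19 of 43. The largest falls were those of BUD23, a methyltransferase of small-subunit RNA, from 136 ± 2.4 CPM in control to 59.0 ± 1.6 and 100.5 ± 5.1 (SD, n = 2 each; log2 fold change −0.82), of ABT1 (−0.64) and of the exosome subunit EXOSC4 (−0.62). The largest rises were those of GNL3L, a GTPase related to nucleostemin, from 16.4 ± 0.11 CPM to 27.96 ± 0.26 and 30.5 ± 2.1 (0.83), of the exosome nuclease DIS3 (0.59) and of the processome protein WDR36 (0.55). Each of these 6 genes had all knockdown libraries beyond both controls.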

How the data were processed

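The deposited table of the authors holds raw whole-number counts of 6 libraries. Per the submitters' processing notes, HISAT2 2.2.0, StringTie and hg38 were used. The annotation, counting options and strand setting were not given in the sources used here. A table of gene names held 56105 of the 64252 identifiers. Positions, lengths and GC content came from GENCODE release 29 on hg38 and promoter sequences from RefSeq.

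Genes were filtered with filterByExpr (minimum count 10), scaled with TMM (factors 0.96 to 1.035) and tested in R 4.3.3 with edgeR 4.0.16 (glmQLFit, glmQLFTest, two-sided) on all 6 libraries, with a term per group, 3 residual degrees of freedom and Benjamini-Hochberg adjustment over 18734 genes. The GC and length correction entered edgeR as offsets from splines fitted per library on 13907 protein-coding genes. The scripts were tested on simulated counts with known changes. Alternatives were RLE scaling, other filters, DESeq2 1.42.0, limma-voom (limma 3.58.1), a replicate term, each library left out, fits of just the groups in a comparison, a fold threshold of 1.5 and rows of a shared symbol summed.

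Replicates were compared before averaging. The chi-square per gene was 8.23 in control, 6.42 in hairpin 1 and 5.73 in hairpin 2, where sampling of independent reads gives 1. As the counting options are not known, the counts may not be of independent reads. The excess is therefore not shown to be variation between samples. Members and lists were chosen with earlier results of these data known. The rule for full values took factors with an adjusted p under 0.05 and a log2 change of at least 0.5 over both hairpins or between the hairpins, those called in opposite directions with the hairpins, and the 5 highest per length in control. It took the 3 largest rises and falls of the other factors.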

Additional observations from a re-analysis of the deposited data

Results flagged for a closer look

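The effects of the 2 hairpins differed by test (edgeR adjusted p under 0.05 for hairpin 2 against hairpin 1) for 29 of the 60 factors. That is 48.3%, near the 46.2% of all genes tested. The differences are given here on the log2 scale, with positive values for a higher level with hairpin 2. Among scaffolds they were 0.75 for NOLC1, −0.50 for TCOF1, −0.28 for LYAR and −0.24 for NPM1. For RNA polymerase I they were −0.39 for POLR1A and −0.39 for POLR1E, and for the U3 protein RRP9 the difference was −0.22. Small-subunit factors lower with hairpin 2 were NOB1 (−1.29), UTP18 (−0.37), DDX21 (−0.28), WDR75 (−0.26), IMP4 (−0.25), DDX10 (−0.20) and UTP4 (−0.19). Small-subunit factors higher with hairpin 2 were TSR1 (0.35), RRP12 (0.24), WDR43 (0.24), UTP15 (0.23), HEATR1 (0.20), UTP14A (0.15), NAT10 (0.13) and WDR3 (0.12). The large-subunit factors that differed by test were lower with hairpin 2 without a GC and length correction: NOP16 (−0.41), WDR12 (−0.29), PPAN (−0.27), RRP1B (−0.25), MRTO4 (−0.19), DDX56 (−0.19) and PES1 (−0.18). After that correction 5 large-subunit factors were lower with hairpin 2 and 3 higher, namely SURF6 (0.19), NOP2 (0.14) and NOC2L (0.13).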

How the results depend on the processing

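Counts of called factors moved by more than 1.5 times mainly under a fold threshold of 1.5, where the factors called higher and lower were 0 and 1 over both hairpins, 0 and 1 with hairpin 1, 0 and 1 with hairpin 2, and 1 and 1 between the hairpins, and those of the other assembly factors 1 and 1. Leaving out each library in turn gave 8 to 9 higher and 23 to 25 lower over both hairpins, 9 to 13 and 15 to 20 with hairpin 1, 5 to 9 and 21 to 28 with hairpin 2, 5 to 9 and 13 to 20 between the hairpins, and 23 to 26 and 44 to 53 for the other factors. Without replicate 1 of the control, 9 were higher with hairpin 1 and 5 with hairpin 2. Without replicate 1 of hairpin 2, 5 were higher with hairpin 2 and 5 higher between the hairpins. Between the hairpins 5 were also higher without replicate 2 of either hairpin, and 13 lower without replicate 2 of hairpin 2. The other counts, 159 of 176, stayed within 1.5 times, GC and length correction included, although that correction changed which factors were called. The named factors kept direction and call in 169 of 175 refits, and the 6 that lost the call were under the fold threshold. Replicate numbers are shared between groups, but same-numbered libraries did not deviate together (correlations 0, −0.04 and −0.03). These values cannot tell whether same-numbered libraries were prepared together. With a replicate block the counts over both hairpins were 9 higher and 24 lower, and 8 and 19 with the block and the GC and length correction. With 2 libraries a group, a p that misses the threshold does not show that levels were equal. A fit of just the groups compared was not run for both hairpins, which already uses every group.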

Other observations

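Some of the factors carry other RNA genes within their bounds. Of the 60 genes, 9 span 28 annotated snoRNA genes on their own strand: NCL, GNL3, POLR1C, NOP56, NOP58, DKC1, WDR43, TSR1 and PPAN. Over both hairpins 2 of these hosts were higher (NOP58 and WDR43), 3 lower (NOP56, TSR1 and PPAN) and 4 not called. Over all genes tested 23.6% were higher and 26.4% lower. After GC and length correction WDR43 (0.07) was no longer called and PPAN was called higher (0.18).

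Beyond the E-box, 2 other sequences were counted in the RefSeq promoter windows, on both strands. CCGGAA, the core of ETS factor sites, was in 30 of 51 factors (58.8%), in 33.3% of tested protein-coding genes and in 55.3% of 103 other assembly factors. TATAAA was in 1 of the 51, UTP20, and in 8.81% of tested protein-coding genes. The E-box CACGTG was in 24.3% of the other assembly factors, against 47.1% of the factors described here.

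PPAN, a large-subunit factor, shares its exons with an annotated read-through, PPAN-P2RY11, that is counted in a row of its own. The PPAN row was at 82.5 and 71.1 CPM in control, 64.9 and 76.7 with hairpin 1 and 57.6 and 59.7 with hairpin 2. The read-through row was at 1.14 and 10.05 CPM, then 8.45 and 0, then 8.10 and 1.08, so within each group the library with more PPAN had less of it. The sum of both rows was 83.6 and 81.1 CPM in control, 73.4 and 76.7 with hairpin 1 and 65.7 and 60.75 with hairpin 2, with no overlap between the 3 groups. Replicates of the sum differed less than those of PPAN alone in control (SD 1.75 against 8.06) and hairpin 1 (2.34 against 8.32), and more in hairpin 2 (3.52 against 1.44). The sum was chosen after its values were seen.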
